A study of Mus musculus with 8 samples.

Results

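*P2ry12*, *Tmem119*, *Cx3cr1*, *Sall1*, *Siglech*, *Gpr34*, *P2ry13*, *Olfml3* and *Fcrls* are signature genes of homeostatic microglia, and their expression was compared between CSF1 OE and control mice gene by gene. These 9 genes were matched by symbol from a list whose rule uses no measured value, although the list was drawn up with earlier results of these data known, and 9 of 9 were found among the 20308 gene symbols counted. RNA was measured by RNA-seq in CD11b+ cells, pulled down with antibody-coated magnetic beads from the right brain hemisphere after myelin removal. CSF1 OE mice carry transgenes of the TRE/tTA system by which some GFAP+ cells, astrocytes in the main, overexpress secreted CSF1, a growth factor for microglia. Control mice are given as the controls for this overexpression, and which alleles they carry is not given in the sources used here. All 8 mice, 4 control and 4 CSF1 OE, were F1 offspring of C57Bl/6 and CD1 aged p14 or p15, 1 library was made from each mouse, and the labels identify the mice by animal number (1827, 1872, 1874 and 1934 for control, and 1931, 1932, 1936 and 2019 for CSF1 OE).

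Microglia at rest in the brain express a set of receptors and surface proteins that most other macrophages lack or express weakly, and many of these transcripts are lost when microglia become activated. Their expression depends on signals from the brain, among them TGF-beta, and on transcription factors such as PU.1 and SALL1. CSF1 acts on microglia through the receptor encoded by *Csf1r*, on which their survival and proliferation depend.

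The promoters of 4 of these genes are shown here, and the genes were picked by their RNA values given below. Any part of the promoters in those RNA values was not tested. *P2ry12*, *P2ry13* and *Fcrls* are the members whose level relative to other microglial transcripts was lower in every CSF1 OE mouse than in every control mouse, and *Siglech* is the member with the highest fold change. Each line holds the 250 bases before the gene's start, written 5′ to 3′ on the strand of the gene, as RefSeq gives them for GRCm38.p6. Capitals mark matches to GAGGAA or GGAAGT, each of which is a portion of the purine-rich sequence that PU.1 is known to bind, or to their reverse complements on the other strand. The motifs share the letters GGAA and can overlap at them.
P2ry12, chr3:59262986-59263235, minus strand: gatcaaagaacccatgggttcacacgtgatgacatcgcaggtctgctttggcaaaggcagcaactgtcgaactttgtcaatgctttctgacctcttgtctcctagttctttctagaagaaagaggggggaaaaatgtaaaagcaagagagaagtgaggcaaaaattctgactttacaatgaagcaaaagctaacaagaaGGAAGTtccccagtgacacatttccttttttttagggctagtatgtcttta
P2ry13, chr3:59210883-59211132, minus strand: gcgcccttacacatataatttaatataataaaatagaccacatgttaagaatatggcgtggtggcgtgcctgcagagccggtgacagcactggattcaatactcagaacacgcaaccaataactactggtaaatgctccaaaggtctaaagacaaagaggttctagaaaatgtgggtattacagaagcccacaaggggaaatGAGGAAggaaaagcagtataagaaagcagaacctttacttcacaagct
Fcrls, chr3:87263525-87263774, minus strand: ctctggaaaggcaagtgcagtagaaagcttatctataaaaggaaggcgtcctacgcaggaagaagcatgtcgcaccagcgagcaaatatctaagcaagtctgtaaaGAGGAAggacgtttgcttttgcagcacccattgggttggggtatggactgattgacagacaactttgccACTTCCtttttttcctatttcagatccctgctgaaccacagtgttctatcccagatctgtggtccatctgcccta
Siglech, chr7:55767934-55768183, plus strand: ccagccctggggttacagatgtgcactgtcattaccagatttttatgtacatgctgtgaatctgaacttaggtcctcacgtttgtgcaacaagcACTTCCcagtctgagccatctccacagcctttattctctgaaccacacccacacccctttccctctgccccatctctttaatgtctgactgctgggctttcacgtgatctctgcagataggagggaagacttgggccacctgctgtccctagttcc

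*P2ry12* held GGAAGT 51 bases before its start, and *P2ry13*, its neighbour on the same strand of chromosome 3, held GAGGAA 48 bases before its start. *Fcrls* held GAGGAA 144 bases before its start and, on the other strand, GGAAGT at 75 bases. *Siglech* held GGAAGT on the other strand 156 bases before its start. These distances are from RefSeq starts, whereas the gene positions given below are GENCODE spans, and the 2 sources differ. The GENCODE span of *Fcrls* ends at 87263738, inside the window shown, and both matches of *Fcrls* lie within that span. That of *P2ry12* ends at 59262871, short of its window, and that of *Siglech* begins at 55768178, near the end of its window. RefSeq promoters were found for 7 of the 9 genes, in 9 windows as *Sall1* has 3, and 5 of these windows held either motif. Every window shown held a match, while the windows of *Cx3cr1* and *Olfml3*, which are not shown, held none. Over all 32851 promoter windows of this length 36.74% held either motif, 23.25% GAGGAA and 19.74% GGAAGT. These matches describe the letters and do not show binding.

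The 9 members, which are markers of the labelled cell type, were abundant in every library. Their summed level was between 11910.0 and 21446 CPM (counts scaled to the normalized library size) in control and between 13979 and 20228 CPM in CSF1 OE mice. Total expected counts per library ran from 12053280 to 15475488. *Csf1r* was the most abundant of the listed genes in control mice, at 9722 ± 2239.6 CPM (SD, n = 4). Transcripts of other cells were also present, and 75 genes in 6 lists (endothelial, mural, astrocyte, oligodendrocyte, oligodendrocyte precursor and neuronal genes) summed to between 3224 CPM in CSF1 OE mouse 2019 and 11422 CPM in control mouse 1934. *Csf1* itself had 282 ± 98.7 CPM in the control group and 322 ± 107 CPM with CSF1 OE, which does not check the labels because the transgene is expressed in GFAP+ cells and not in the cells selected here.

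None of the 9 homeostatic genes was called differentially expressed between CSF1 OE and control mice with edgeR. A call needed an adjusted p (Benjamini-Hochberg) below 0.05 together with a fold change below 0.7 or above the reciprocal of 0.7, and by this rule 0 of 9 members were called against 0.44% of the 13407 genes tested, of which 0.0522% were called lower. The log2 fold change, CSF1 OE against control, was negative for 7 members (77.8%) and positive for 2, where it was negative for 55.2% of all genes tested. Its median was -0.20 over the members and -0.03 over all genes tested. A single member, *Fcrls*, had an unadjusted p under 0.05, which is 11.1% of the members against 16.5% of all genes, 6.44% lower and 10.1% higher. It was also the 1 member with a fold change below 0.7, as were 9.82% of all genes tested. The CPM values of the groups overlapped in 9 of 9 members, while they did not overlap in 10.3% of all genes tested, with 3.45% lower and 6.84% higher in all CSF1 OE mice. With DESeq2 1 member, *Fcrls*, was called, against 1.2% of 12952 genes called lower, and with limma 0 were called. In bulk RNA fewer cells of a type and less RNA per cell cannot be told apart.

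The P2Y receptors sense nucleotides released from other cells. *P2ry12*, on chromosome 3 from 59216272 to 59262871, encodes the ADP receptor by which microglia direct their processes to sites of damage, and it was the most abundant member. It had 5508, 5249, 4806 and 3132 CPM in control mice 1827, 1872, 1874 and 1934, and 3704, 3597, 3441 and 5211 CPM in CSF1 OE mice 1931, 1932, 1936 and 2019. All controls but 1 were above 3 of the CSF1 OE mice, while control 1934 was the lowest of all 8 and CSF1 OE 2019 lay among the controls. The means were 4674 ± 1068 and 3988 ± 822 CPM (SD, n = 4 each). The log2 fold change of *P2ry12* was -0.23 (standard error 0.22, 95% interval -0.72 to 0.26, adjusted p = 0.626 from edgeR).

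*P2ry13*, on chromosome 3 from 59207892 to 59210882, encodes a second ADP receptor. Its levels were 1482, 1491, 1348 and 883 CPM in the control and 1101, 822, 933 and 1529 CPM in the CSF1 OE mice, in the order of mice given for *P2ry12*. The pattern was that of *P2ry12*, except that CSF1 OE 2019 was here the highest of all 8 and CSF1 OE 1932 the lowest. With means of 1301 ± 286 and 1096 ± 310.4 CPM, its log2 fold change was -0.25 (standard error 0.23, 95% interval -0.77 to 0.27, adjusted p = 0.621 from edgeR). Both genes lie within *Med12l*, which runs on the opposite strand and had between 110.2 and 186 CPM, and as the library kit does not mark strand, reads of *Med12l* in the shared stretches cannot be told apart from theirs.

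*Gpr34*, on chromosome X from 13632089 to 13640858, encodes a receptor for lysophosphatidylserine. Its levels were 1323, 1278, 1309 and 708 CPM in the control and 1014, 837, 773 and 1397 CPM in the CSF1 OE mice, in the same order of mice. The 3 higher controls lay within a narrow range, control 1934 was far below them, and CSF1 OE 2019 was above every control. CSF1 OE against control gave a log2 fold change of -0.20 (standard error 0.25, 95% interval -0.76 to 0.36, adjusted p = 0.714 from edgeR), from means of 1154 ± 298 and 1005 ± 280.4 CPM. *Gpr34* lies within *Cask*, which runs on the opposite strand and had between 48.9 and 64.7 CPM. Reads of *Cask* in any shared stretches cannot be told apart from those of *Gpr34*.

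*Cx3cr1*, on chromosome 9 from 119901616 to 120069879, encodes the receptor for the neuronal chemokine fractalkine. It had 4534, 4681, 4509 and 2534 CPM in the control and 4028, 3253, 3487 and 5038 CPM in the CSF1 OE mice. As with *Gpr34*, the lowest value was that of control 1934 and the highest that of CSF1 OE 2019. Its means differed least of the 9 members on the log2 scale, at 4065 ± 1023 and 3952 ± 794 CPM. The log2 fold change was -0.04 (standard error 0.23, 95% interval -0.56 to 0.48, adjusted p = 0.940 from edgeR). The span of *Cx3cr1* overlaps the counted genes *Wdr48*, *Gorasp1*, *Ttc21a*, *Csrnp1* and *Xirp1*. The most abundant of these was *Csrnp1*, at 146 to 227 CPM, and reads in any shared stretches cannot be told apart.

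**Figure D1:**
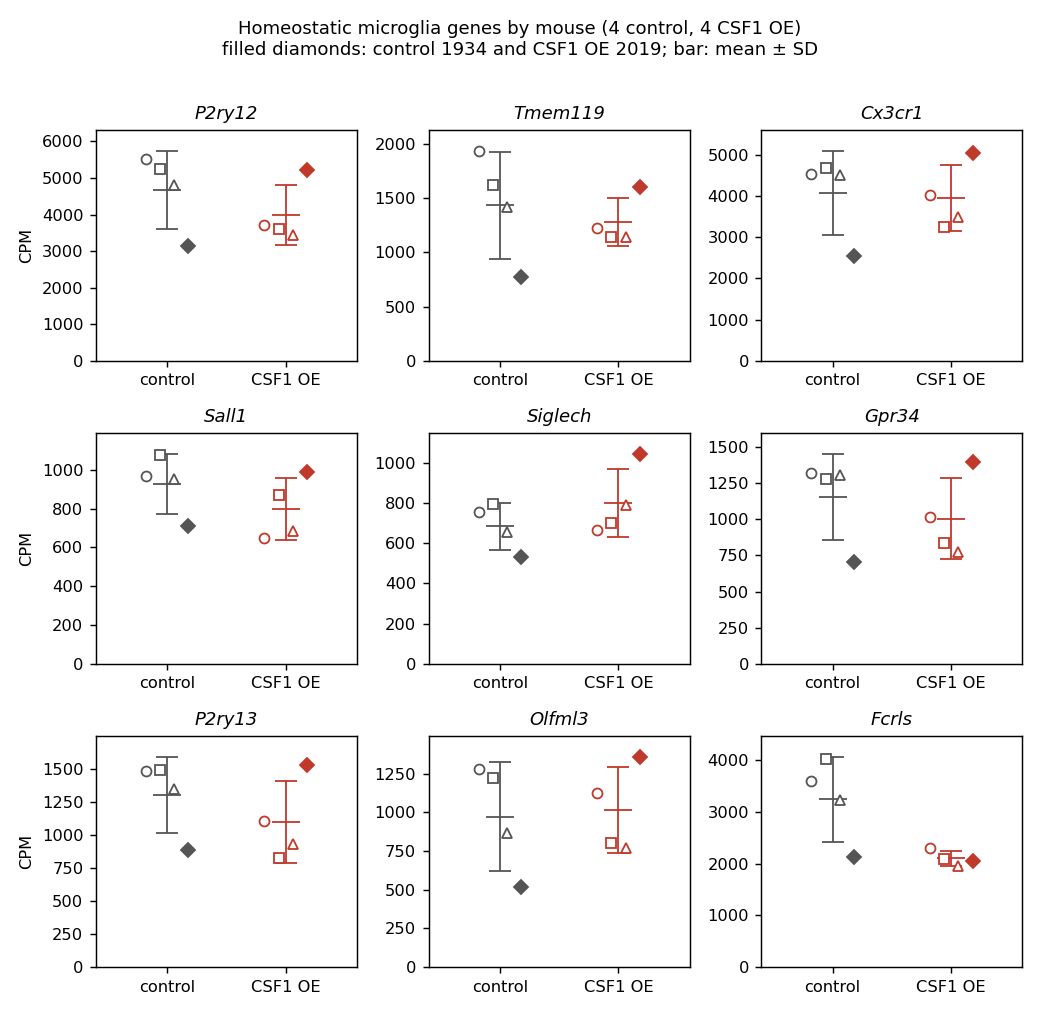
Expression of each of the 9 homeostatic genes in CPM (vertical axis, linear, from 0), with 1 point per mouse for 4 control (grey) and 4 CSF1 OE mice (red) and bars for the mean ± SD. The filled diamonds are control 1934, the lowest control in 9 of 9 genes, and CSF1 OE 2019, the highest CSF1 OE mouse in 8 of 9, and the groups overlap in every panel.

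Among the other surface proteins, *Fcrls* stood apart. *Fcrls*, on chromosome 3 from 87250758 to 87263738, encodes an Fc receptor-like scavenger receptor found in microglia and used to mark them in mice. It had 3599, 4030.5, 3238 and 2119 CPM in the control and 2300.4, 2098, 1956 and 2061 CPM in the CSF1 OE mice. All 4 CSF1 OE mice, 2019 included, lay close together, and control 1934 was the single control within their range. From means of 3247 ± 818 and 2104 ± 144 CPM, the log2 fold change was -0.63 (standard error 0.19, 95% interval -1.06 to -0.19), a fold change of 0.648. It had an unadjusted p of 0.0101 and an adjusted p of 0.168 from edgeR, ranked 807 of 13407 by p, and so was not called. DESeq2, with a log2 fold change of -0.62 and an adjusted p of 0.0233, did call it. Without control 1934 the log2 fold change was -0.77 and the adjusted p 0.0755 from edgeR.

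*Siglech*, on chromosome 7 from 55768178 to 55778925, encodes a sialic acid-binding receptor that works through the adaptor encoded by *Tyrobp*. It had 752, 795, 655 and 532 CPM in the control and 665, 702, 789.6 and 1043 CPM in the CSF1 OE mice. The values of 3 CSF1 OE mice lay among the controls and CSF1 OE 2019 lay above all. Its log2 fold change was 0.23 (standard error 0.18, 95% interval -0.18 to 0.63, adjusted p = 0.554 from edgeR), from means of 684 ± 117 and 799.9 ± 170.3 CPM, and it was the highest of the 9. *Siglech* is also expressed by plasmacytoid dendritic cells. Of 10 genes listed for those cells, 9 were counted, 1 of them at 0 in every library, and 3 passed the filter on low counts, of which *Lair1* is a microglial gene as well. The others were *Pacsin1*, at 51.5 and 37.6 CPM in control and CSF1 OE mice, and *Cox6a2*, at 0.821 and 1.07 CPM.

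*Tmem119*, on chromosome 5 from 113793729 to 113800516, encodes a membrane protein that is widely used to tell microglia from other macrophages. It had 1938, 1622, 1417 and 771 CPM in the control and 1225, 1145, 1147 and 1604 CPM in the CSF1 OE mice. The controls spanned the whole range of the 8 mice and the CSF1 OE mice lay inside it. For *Tmem119* the log2 fold change was -0.17 (standard error 0.26, 95% interval -0.75 to 0.42, adjusted p = 0.771 from edgeR), from means of 1437 ± 493 and 1280.2 ± 219 CPM.

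*Sall1*, on chromosome 8 from 89027235 to 89044162, encodes a zinc finger transcription factor that maintains microglial identity. Its levels were 969, 1077, 952 and 712 CPM in the control and 647, 870.4, 683 and 989 CPM in the CSF1 OE mice. Here CSF1 OE 1931 and 1936 lay below control 1934, and the other CSF1 OE mice lay among the controls. For *Sall1* the log2 fold change was -0.22 (standard error 0.18, 95% interval -0.62 to 0.18, adjusted p = 0.567 from edgeR), from means of 928 ± 154 and 798 ± 161 CPM.

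*Olfml3*, on chromosome 3 from 103722222 to 103738001, encodes a secreted matrix glycoprotein. Its levels were 1276, 1223, 864 and 519 CPM in the control and 1122, 802, 771 and 1356 CPM in the CSF1 OE mice. It was the most variable member, with a coefficient of variation of 36.3% among the controls. Its log2 fold change was 0.06 (standard error 0.30, 95% interval -0.61 to 0.73, adjusted p = 0.931 from edgeR), from means of 971 ± 352 and 1013 ± 279 CPM. The interval of *Olfml3* was the widest of the 9, and it includes both a fold change of 0.656 and one of 1.66.

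Counting error was small beside the spread of the mice. The lowest count of a member in a library was 7879, for *Sall1*, and the counting error of any member in any library was at most 1.13%. The coefficient of variation between mice ran from 16.6% to 36.3% among controls and from 6.85% to 28.3% among CSF1 OE mice, the lowest being that of *Fcrls* in CSF1 OE mice. The 95% interval of the log2 fold change included 0 for 8 of the 9 members. For each of these 8 genes a fold change below the lower threshold of 0.7 was within the interval, except for *Siglech*, where the interval of the fold change was 0.886 to 1.55. The mice are separate animals, so that the p-values measure the spread between animals.

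**Figure D2:**
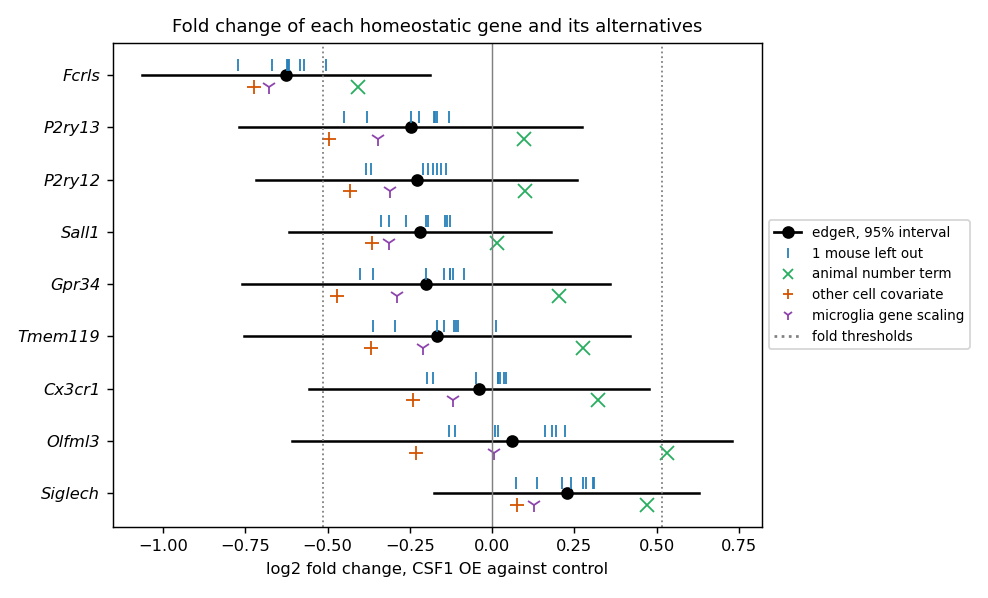
Log2 fold change of each member, CSF1 OE against control (horizontal axis), with the edgeR estimate and its 95% interval in black, the estimates with 1 mouse left out as blue ticks, and 3 other fits as coloured symbols. The interval of *Fcrls* lies below 0, at -1.06 to -0.19, those of the other 8 include 0, and with a term for animal number (green crosses) the estimate of *Fcrls* is the 1 member value below 0.

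Compared per kilobase of the longest protein-coding transcript, the order of the members in control mice was *P2ry12* (1994 CPM per kilobase), *Fcrls* (1428), *Cx3cr1* (905), *Tmem119* (641), *Gpr34* (553), *P2ry13* (515), *Siglech* (297), *Olfml3* (178) and *Sall1* (176). The step from *P2ry12* to *Fcrls* held in 8 of 8 libraries, that from *Fcrls* to *Cx3cr1* in 7 and that from *Gpr34* to *P2ry13* in 7. *Olfml3* and *Sall1* differed by less than their spread, with that order in 5 of 8 libraries, and per kilobase of the shorter RefSeq span *Olfml3* was at 372 in control and 388 in CSF1 OE mice. In CSF1 OE mice *P2ry12* had 1701 ± 351, *Fcrls* 926 ± 63.4 and *Cx3cr1* 879 ± 177 CPM per kilobase.

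A pair of mice stood at or near the ends of many members. Control 1934 was the lowest control in 9 of 9 genes and the lowest of all 8 mice in 6. CSF1 OE 2019 was the highest CSF1 OE mouse in 8 of 9 genes, with *Fcrls* the exception, and the highest of all 8 in 5. Both ends of the range were theirs in *Cx3cr1*, *Siglech*, *Gpr34* and *Olfml3*, while another mouse held at least 1 end in the other 5 members. These 2 libraries also stood at the ends of the score for other cell types. This score is a mean of z scores over those of the 75 genes that passed the filter on low counts. It was 1.21 in control 1934 and -1.58 in CSF1 OE 2019 against -0.37 to 0.67 in the other 6. The summed level of these other-cell genes was 5829, 6019, 8943 and 11422 CPM in the control and 5558, 6653, 9046 and 3224 CPM in the CSF1 OE mice. The part of other cells in the members' values was not tested by these sums. With the score as a covariate the log2 fold changes were -0.43 for *P2ry12* (adjusted p = 0.0925 from edgeR), -0.50 for *P2ry13* (0.0700), -0.47 for *Gpr34* (0.0980) and -0.72 for *Fcrls* (0.0513), and 0 of 9 members were called.

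Genes of border macrophages, which the CD11b beads also collect, were present too. Of 18 such genes 17 had negative and 1 a positive log2 fold change, 0 were called, and their sum ranged from 4072 to 5342 CPM in control and from 2765 to 4317 CPM in CSF1 OE mice, with none of the 18 at 0 in all libraries. With a score of these genes as a covariate *Fcrls* had a log2 fold change of -0.52 (adjusted p = 0.576 from edgeR) and *P2ry12* of -0.03 (adjusted p = 0.971). *Cx3cr1*, *Sall1*, *Gpr34* and *P2ry13* turned positive (adjusted p = 0.815, 0.954, 0.910 and 0.993 from edgeR). The score was -0.25, 1.05, 0.94 and 0.30 in the control and -0.57, -0.49, -1.14 and 0.16 in the CSF1 OE mice. As it went partly with the group, this fit cannot tell its part from that of CSF1 OE. The part of border macrophages in the values of the members was not tested.

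**Figure D3:**
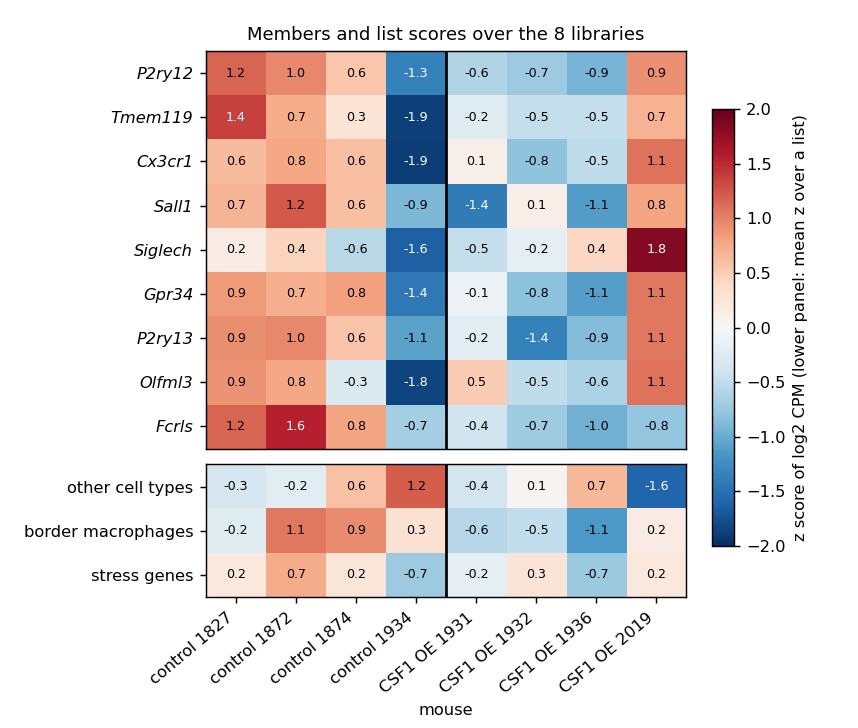
Z scores of log2 CPM over the 8 libraries for each member (upper panel) and mean z scores of 3 gene lists (lower panel), 1 column per mouse, controls left of the black line. Control 1934 is the lowest control in every member and highest for other cell types at 1.21, and CSF1 OE 2019 is high in every member but *Fcrls* and lowest for other cell types at -1.58.

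Animal numbers divided the mice into those from 1931 to 1936, which were 1 control and 3 CSF1 OE mice, and the others, which were 3 controls and 1 CSF1 OE mouse. The labels do not give a batch, and with 1 mouse on a side in each range the values have no test. The single mice were control 1934 in the range from 1931 to 1936 and CSF1 OE 2019 among the other numbers. These libraries had the highest (1.21) and the lowest (-1.58) score for other cell types. Within the range from 1931 to 1936 the log2 ratio of CSF1 OE to control was 0.19 for *P2ry12*, 0.60 for *Tmem119*, 0.50 for *Cx3cr1*, 0.04 for *Sall1* and 0.43 for *Siglech*. It was 0.31 for *Gpr34*, 0.11 for *P2ry13*, 0.79 for *Olfml3* and -0.00074 for *Fcrls*. Among the other numbers it was 0.0065 for *P2ry12*, -0.05 for *Tmem119*, 0.14 for *Cx3cr1*, -0.01 for *Sall1* and 0.51 for *Siglech*. It was 0.10 for *Gpr34*, 0.09 for *P2ry13*, 0.27 for *Olfml3* and -0.81 for *Fcrls*. The negative pooled values of *P2ry12*, *Cx3cr1*, *Gpr34* and *P2ry13* were not seen in either range, and the value of *Fcrls* was seen in 1 of the 2. Each ratio has control 1934 or CSF1 OE 2019 alone on 1 side. The part of the number range thus cannot be told apart from that of these mice. This limit also holds for the fit with a term for the ranges, given next.

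With these ranges as a term in the edgeR fit, 6 of the 7 negative log2 fold changes turned positive, among them that of *P2ry12* at 0.10 (adjusted p = 0.603) and that of *Cx3cr1* at 0.32 (adjusted p = 0.155). *Fcrls* kept its sign at -0.41 (adjusted p = 0.188). *Siglech* had a log2 fold change of 0.47 (adjusted p = 0.0349) in this fit and was not called, as the fold threshold was not reached.

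Relative to other microglial transcripts of the same library, the sum of the members and 3 of them singly were lower in every CSF1 OE mouse than in every control mouse. Their summed CPM was set beside that of 42 other microglia-enriched genes, a comparison within each library that was chosen after the data had been seen. The sum of the 9 members was 32.2%, 34.8%, 35.2% and 32.8% of the sum of the other genes in the control and 26.9%, 27.5%, 28.0% and 29.0% in the CSF1 OE mice. Control 1934 and CSF1 OE 2019 lay with their own groups on this measure and the groups did not overlap (33.8% ± 1.46 and 27.8% ± 0.864, SD, n = 4 each). *P2ry12* was at 8.58% ± 0.235 in control and 6.91% ± 0.472 in CSF1 OE mice. *P2ry13* was at 2.39% ± 0.110 and 1.88% ± 0.241, and *Fcrls* at 5.94% ± 0.462 and 3.72% ± 0.516, without overlap of the groups in these 3 genes. Of all genes tested, 2.66% were lower in every CSF1 OE mouse on this measure and 1.18% were higher. The groups overlapped for *Tmem119*, *Cx3cr1*, *Sall1*, *Siglech*, *Gpr34* and *Olfml3*.

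The reference for this measure was itself not constant, so that it shows unequal change and not which side changed. *Ctss*, encoding the lysosomal protease cathepsin S, averaged 1853 ± 470.1 CPM in control against 3163 ± 748 CPM in CSF1 OE mice (log2 fold change 0.77, standard error 0.23, adjusted p = 0.161 from edgeR). Without *Ctss* in the reference, *P2ry12*, *Fcrls* and the sum of the members remained lower in every CSF1 OE mouse and *P2ry13* overlapped. Against *Csf1r* alone the sum of the members was 189% ± 7.35 in control and 158% ± 5.71 in CSF1 OE mice, and *P2ry12*, *P2ry13* and *Fcrls* did not overlap. Against *Itgam* alone, which encodes CD11b, the same 3 genes as with *Csf1r* did not overlap. The sum of the 8 members other than *Fcrls* overlapped between the groups against *Csf1r* and against *Itgam*. For these references, and for the one without *Ctss*, the share of all genes that did not overlap was not computed. The separations against them thus have no background to be read against. When the libraries were scaled to the other microglia-enriched genes in the edgeR fit, the log2 fold changes were -0.68 for *Fcrls* (adjusted p = 0.180), -0.35 for *P2ry13* (0.853) and -0.31 for *P2ry12* (0.646), 0 of 9 members and 0 of all genes were called, and the median of all genes was -0.16.

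**Figure D4:**
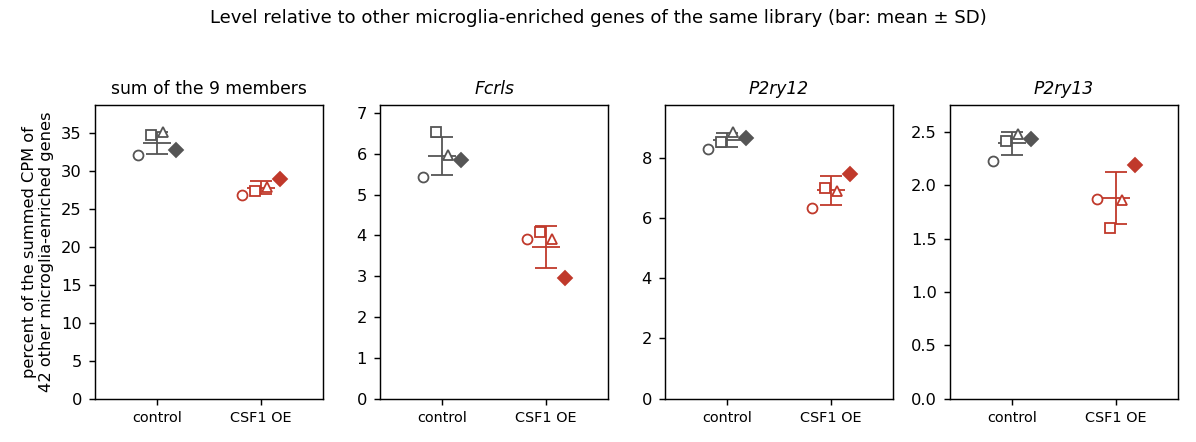
Summed CPM of the 9 members, and CPM of *Fcrls*, *P2ry12* and *P2ry13*, as a percent of the summed CPM of 42 other microglia-enriched genes of the same library (vertical axes, linear, from 0), with 1 point per mouse and bars for the mean ± SD. The 4 CSF1 OE mice (red) sit below the 4 controls (grey) in each panel, the sum at 26.9% to 29.0% against 32.2% to 35.2%, with control 1934 and CSF1 OE 2019 as filled diamonds.

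Within the set, *Fcrls* was the 1 member whose share did not overlap between the groups. As a percent of the summed CPM of the other 8 members, *Fcrls* was at 20.2%, 23.1%, 20.4% and 21.6% in the control and 17.0%, 17.4%, 16.3% and 11.3% in the CSF1 OE mice. The groups did not overlap, and CSF1 OE 2019, where the other members were high, was the lowest. Of all genes tested 0.38% were lower in every CSF1 OE mouse as a share of the members and 3.3% were higher, and no other member was separated in this way. The share of *Siglech* was 3.93% ± 0.511 in control and 5.26% ± 0.661 in CSF1 OE mice and overlapped, with control 1934 at 4.67% and CSF1 OE 1931 at 4.39%. On the log2 scale the mean share differed by -0.46 for *Fcrls*, 0.42 for *Siglech*, 0.30 for *Olfml3* and 0.21 for *Cx3cr1*, and by less for the other members.

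The other 42 microglia-enriched genes did not share a direction, with 19 negative and 23 positive log2 fold changes, a median of 0.04 and 0 called. *Ctss* had the highest value. *Slc2a5*, encoding a fructose transporter found in microglia, had the lowest at -0.62 (adjusted p = 0.554 from edgeR). Of 18 transcription factors of microglia, *Sall1* among them, 12 had negative and 6 positive values and 0 were called. *Mef2a* had the highest of these, with a log2 fold change of 0.27 (adjusted p = 0.235), and *Bhlhe40* the lowest at -0.64 (adjusted p = 0.204). *Spi1*, encoding PU.1, averaged 202 ± 39.1 CPM in control against 236 ± 31.7 CPM in CSF1 OE mice, with a log2 fold change of 0.22 (adjusted p = 0.518 from edgeR).

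Of 21 tested genes of the TGF-beta pathway, on which the homeostatic state depends, 15 had negative and 6 positive log2 fold changes and 0 were called. The receptor gene *Tgfbr1* averaged 1394 ± 304 CPM in control against 1424 ± 275 CPM in CSF1 OE mice, which is 0.03 on the log2 scale. *Tgif1*, a repressor of the pathway, had the highest log2 fold change at 0.56 (adjusted p = 0.289 from edgeR) and *Lrrc32*, which holds latent TGF-beta on the cell surface, the lowest at -0.60 (adjusted p = 0.288). Of 23 tested ligands and signalling partners of the members, 13 were negative, 10 positive and 0 called. *Cx3cl1*, encoding the ligand of CX3CR1, averaged 19.6 ± 7.81 CPM in control against 10.2 ± 5.03 CPM in CSF1 OE mice, the lowest log2 fold change of that list at -0.94 (adjusted p = 0.293). The highest was that of *Hcst*, an adaptor, at 0.72 (adjusted p = 0.265). Around *P2ry12* and *P2ry13*, 3 neighbouring genes could be tested, of which *P2ry14* had 0.29 and *Igsf10* -0.53 (adjusted p = 0.749 and 0.219).

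Of the tested genes of disease-associated microglia, 3 of 27 were called higher in CSF1 OE mice, where 0.388% of all genes were. These genes are known to come up as homeostatic genes decline in disease. *Axl*, encoding a receptor for apoptotic cells, rose by a log2 fold change of 2.20 (adjusted p = 0.00160 from edgeR), *Itgax* by 1.70 (adjusted p = 0.0431) and *Gpnmb* by 2.49 (adjusted p = 0.0492). The median log2 fold change of the 27 genes was 0.31, against -0.20 for the 9 homeostatic genes. None of those 9 genes was called, and a link between the lists was not tested. Both lists were drawn up with earlier results of these data known. *Ccl4*, encoding a chemokine, had the lowest value of the list at -0.44 (adjusted p = 0.414 from edgeR).

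The genes whose levels followed the mean pattern of the 9 members most closely over the 8 libraries, by the root mean square difference of z scores, were *Cyth4* (0.187), *Pwwp2a* (0.191), *Arfrp1* (0.195), *Arhgap27* (0.201) and *Garnl3* (0.209). These values describe 8 libraries in which mice 1934 and 2019 stand apart. The nearest gene was *Susd3* for *P2ry12*, *Abi3* for *Tmem119*, *Mapk14* for *Cx3cr1*, *Nuak1* for *Sall1*, *Vps41* for *Siglech*, *Tsen54* for *Gpr34*, *Stat5b* for *P2ry13* and *Fscn1* for *Olfml3*. For *Fcrls* it was *Bend6*, with 15.2 ± 2.79 CPM in control against 10.9 ± 0.315 CPM in CSF1 OE mice, and a log2 fold change of -0.47 (adjusted p = 0.179 from edgeR). In 0 of 9 cases was the nearest gene another member.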

How the data were processed

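RNA of CD11b+ brain cells was measured in 4 control and 4 CSF1 OE mice, with groups taken from the genotype codes in the labels. The authors processed the reads with bcl2fastq 1.8.4, Bowtie 1.0.0 and RSEM 1.2.7 on build mm10, per the labels, and deposited expected counts per gene symbol, without normalization. RSEM divides reads that fit several genes, and the values of the members were fractional in 7 or 8 of the 8 libraries. The annotation release is not given in the sources used here. The deposited normalized values, a signal on the count scale, are the authors' expected counts divided by 1 size factor per library. EBSeq, with which the authors called genes, was not used.

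Expected counts were rounded and tested with edgeR 4.0.16 in R 4.3.3 (TMM, filterByExpr, glmQLFit, glmQLFTest) over 13407 genes, with Benjamini-Hochberg adjustment. A prior count of 2 was added for CPM on the log2 scale. With at least 7879 counts for a member in a library, precision was set by the mice, and counting limits cover counting error only. Alternatives were DESeq2 1.42.0, limma 3.58.1 on the normalized values with a pseudocount of 1 or 0.5, other scalings and filters, a robust prior, glmTreat, terms for animal number, other cells, border macrophages or stress genes, and each mouse left out. Genes named are the 9 members, the highest and lowest of each list, called list genes and the nearest patterns; *Ctss*, *Csf1r*, *Itgam*, *Tyrobp*, *Spi1*, *Tgfbr1*, *Csf1*, *Lair1*, *Pacsin1* and *Cox6a2* were named for their roles. The members and lists were chosen with earlier results of these data known. Positions were taken from GENCODE M21 (GRCm38), in which 19301 of 20308 symbols matched 1 gene.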

Additional observations from a re-analysis of the deposited data

Results flagged for a closer look

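In 3 of 22 groups of 4 mice that were examined, 1 mouse stood farther from the other 3 than Dixon's 95% critical value of 0.829. The measure is the gap to the nearest mouse divided by the range of the group, and chance gives such a value in about 1 of 20 groups. The groups are the same control and CSF1 OE mice taken gene by gene and over sums of genes. They are not independent, so 3 of 22 cannot be set against that rate. *Cx3cr1* and *Gpr34* in control mice had a gap of 0.92 and 0.926 of the range, with mouse 1934 the low one at 2534 and 708 CPM. *P2ry12* in CSF1 OE mice had a gap of 0.851, with mouse 2019 the high one at 5211 CPM. Without control 1934 the log2 fold changes of all members but *Siglech* were negative, and without CSF1 OE 2019 those of all but *Siglech* were negative as well.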

How the results depend on the processing

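No member was called under 15 of 16 alternatives or with any mouse left out, and 1, *Fcrls*, was called by DESeq2 (-0.62). The sign of *Fcrls* and of *Siglech* held throughout, with the adjusted p of *Fcrls* from 0.0233 (DESeq2) to 0.999998 (glmTreat). With the term for animal number 1 member and 5 other microglia-enriched genes were negative (7 and 19 in the fit as reported), 1273 genes were called, the members' median was 0.20, and *P2ry12* (0.10), *Tmem119* (0.28), *Cx3cr1* (0.32), *Sall1* (0.014), *Gpr34* (0.20) and *P2ry13* (0.10) reversed. With the border macrophage covariate 3 members and 10 other microglia-enriched genes were negative, 0 genes were called, and *Cx3cr1* (0.21), *Sall1* (0.040), *Gpr34* (0.11) and *P2ry13* (0.0094) reversed. The covariate for other cells reversed *Olfml3* (-0.23), with 33 other microglia-enriched genes negative and 302 genes called. That for stress genes reversed *Tmem119* (0.019) and *Cx3cr1* (0.11), with 9 and 8. With 1 mouse left out the range was 5 to 8 negative members, 12 to 29 other microglia-enriched genes, 3 to 164 called genes, -0.36 to -0.11 for the median, -0.77 to -0.50 for *Fcrls*, -0.20 to 0.04 for *Cx3cr1*, -0.36 to 0.01 for *Tmem119* and -0.13 to 0.22 for *Olfml3*. *Cx3cr1* reversed without control 1827 (0.02), 1872 (0.04) or 1874 (0.02) or CSF1 OE 1932 (0.044) or 1936 (0.02), *Tmem119* without control 1827 (0.012), and *Olfml3* without control 1934 (-0.13) or CSF1 OE 2019 (-0.11). Over all genes 59 were called, against 19 with upper-quartile factors, 9 with total counts, 424 with DESeq2, 104 with limma at either pseudocount, 3 with glmTreat and 0 with scaling to microglial genes, an alternative that was chosen once the data had been seen. The cause of these differences was not tested. No paired analysis was possible because the groups share no animal number. The 95% intervals, the widest from -0.61 to 0.73 for *Olfml3*, limit what 4 mice against 4 can show.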

Other observations

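Genes of border macrophages, the CD11b+ cells around vessels and in the meninges, had a median log2 fold change of -0.47, and 0 of 18 were called. Of these, 11 had an unadjusted p under 0.05 and a negative value, against 6.44% of all genes. *Cd209b* had the lowest log2 fold change at -1.71 (adjusted p = 0.162 from edgeR) and *Siglec1* the highest at 0.49 (adjusted p = 0.196). Endothelial genes were negative in 16 of 16, where 55.2% of all genes were, with sums of 1333 to 2283 CPM in control and 652 to 1560 CPM in CSF1 OE mice and 0 called. Cell cycle genes were positive in 20 of 20, and 16 of them had an unadjusted p under 0.05 with a positive value, against 10.1% of all genes. Of these genes 1, *Pcna*, which encodes the sliding clamp of DNA replication, was called higher (log2 fold change 0.55, adjusted p = 0.0499 from edgeR), as were 0.388% of all genes.

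Of the remaining lists with tested genes, the number with a negative log2 fold change, which 55.2% of all genes had, was 6 of 9 for monocytes, 3 of 9 for neutrophils, 9 of 11 for mural cells, 9 of 12 for astrocytes, 11 of 12 for oligodendrocytes, 7 of 11 for oligodendrocyte precursors and 9 of 11 for neurons. It was 6 of 6 for red blood cells, 7 of 7 for choroid plexus and ependyma and 14 of 19 for immediate early and stress genes. None of these genes was called by edgeR. T, NK and B cell genes were near the limit of detection, with summed levels of 2.34 to 4.04 CPM for T and NK cells and 8.20 to 20.1 CPM for B cells.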
